A study of Mus musculus with 8 samples.

Results

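The genes described here were 40 symbols listed as targets or regulators of the hypoxia response or as genes of glycolysis, which named 39 genes because Ero1l is the older symbol of Ero1a. A gene was measured where a probe set of the array carried its symbol and no other. That left 31 genes with 1 probe set each, out of 14683 named genes on 16348 probe sets. Pgk1, Eno1, Ldha, Gpi1, Gapdh, Pkm and Mxi1 had no probe set of their own, Pgam1 had one only together with other symbols, and these 8 were not analysed here.

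RNA was hybridised to 8 Affymetrix arrays, 1 sample each, in 4 groups of 2. The groups were cells cultured with doxycycline for 24 h, without it for 24 h, with it for 12 h and without it for 12 h. All came from iSOX7, 1 mouse embryonic stem cell line derived from Ainv18, in which doxycycline switches on the transcription factor SOX7, and the 4 groups shared this genotype. FLK1+ cells from embryoid bodies had been grown in liquid blast medium and sorted as CD41+ and CD34- haematopoietic precursors before the drug was given. Cells lacking the transgene but given doxycycline were not analysed here, so an effect of the drug itself and of SOX7 cannot be told apart. The labels do not say whether the replicates of a group were separate cultures, and the p-values therefore describe the spread of these samples, perhaps only technical.

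Hypoxia-inducible factors (HIF) are dimers of an oxygen-sensitive alpha subunit, such as the products of Hif1a and Epas1, and a stable partner. In oxygenated cells the EGLN prolyl hydroxylases mark the alpha subunit for destruction, so the factor is controlled largely at the protein level, which arrays of RNA do not read. When oxygen is low the dimer binds short DNA motifs and raises transcription of glycolytic enzymes, glucose and lactate transporters, mitophagy receptors and the EGLN enzymes themselves. Haematopoietic stem cells are known for a marked reliance on glycolysis.

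The core letters of the hypoxia response motif, ACGTG and GCGTG, were looked up on both strands of RefSeq promoter windows (build GRCm38.p6), each from 250 bases before to 50 bases after a gene's start. Of the 31 genes, 26 had at least 1 window, and Slc2a3, Ndrg1, Bhlhe40, Bnip3l and Epas1 had none in the table. ACGTG stood in 20 of their 36 windows (55.6%), against 22.5% of the 14774 windows of genes named on the array and 19.6% of all 32851 windows. GCGTG stood in 18 of 36, against 42.9% and 32.4%. Either motif stood in 26 of 36 windows (72.2%), against 54.0% and 43.8%. The palindrome CACGTG, which holds ACGTG on both strands, stood in 3 of 36 windows (8.3%), against 8.7% and 7.2%. By gene, either motif stood in a window of 16 of the 18 that passed with time over both arms described below (88.9%). It stood in 7 of the other 8 (87.5%), and in 58.6% of the 11765 genes named on the array. A match is only a description of the letters. Printed below are the windows of 5 of the 6 genes that rose with time in both arms, and of Pfkfb4, which was lower with doxycycline at 24 h. The capitals mark ACGTG or GCGTG as read on either strand, and each window runs 5′ to 3′ along its gene. Vldlr, the other gene that rose in both arms, had 2 windows and neither motif in them.
Bnip3, chr7:138909457-138909756, minus strand: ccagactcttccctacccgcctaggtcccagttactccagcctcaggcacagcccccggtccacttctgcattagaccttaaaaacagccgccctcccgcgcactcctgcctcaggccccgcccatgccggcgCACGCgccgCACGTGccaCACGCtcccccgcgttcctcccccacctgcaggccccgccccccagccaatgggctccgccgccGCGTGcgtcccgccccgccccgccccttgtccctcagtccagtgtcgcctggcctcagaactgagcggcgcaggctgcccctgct
Egln1, chr8:124949205-124949504, minus strand: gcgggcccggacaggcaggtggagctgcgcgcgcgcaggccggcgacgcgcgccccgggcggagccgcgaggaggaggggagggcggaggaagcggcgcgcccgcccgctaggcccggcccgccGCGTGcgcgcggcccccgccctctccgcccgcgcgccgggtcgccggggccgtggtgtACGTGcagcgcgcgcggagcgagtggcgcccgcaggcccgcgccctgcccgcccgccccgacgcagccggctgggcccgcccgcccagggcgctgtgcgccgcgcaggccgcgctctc
Egln3, chr12:54203825-54204124, minus strand: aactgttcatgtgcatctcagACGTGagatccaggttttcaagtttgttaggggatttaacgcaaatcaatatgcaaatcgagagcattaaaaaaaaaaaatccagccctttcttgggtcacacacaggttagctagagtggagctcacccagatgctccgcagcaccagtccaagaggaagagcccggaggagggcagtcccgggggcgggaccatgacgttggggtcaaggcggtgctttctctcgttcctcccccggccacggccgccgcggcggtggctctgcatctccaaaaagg
Ero1a, chr14:45318523-45318822, minus strand: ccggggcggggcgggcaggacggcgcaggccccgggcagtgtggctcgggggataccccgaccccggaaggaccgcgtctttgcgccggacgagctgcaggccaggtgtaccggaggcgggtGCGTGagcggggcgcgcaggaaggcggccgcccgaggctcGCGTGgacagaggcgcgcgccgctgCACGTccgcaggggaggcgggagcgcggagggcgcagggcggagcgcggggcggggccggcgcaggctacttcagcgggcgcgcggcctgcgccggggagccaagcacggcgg
Ddit4, chr10:59951721-59952020, minus strand: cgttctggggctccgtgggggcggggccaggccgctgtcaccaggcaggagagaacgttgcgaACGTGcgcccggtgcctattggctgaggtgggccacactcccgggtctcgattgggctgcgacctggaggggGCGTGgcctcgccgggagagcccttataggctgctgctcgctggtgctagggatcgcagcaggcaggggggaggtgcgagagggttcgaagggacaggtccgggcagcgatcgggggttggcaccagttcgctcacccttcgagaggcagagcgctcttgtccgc
Pfkfb4, chr9:108991652-108991951, plus strand: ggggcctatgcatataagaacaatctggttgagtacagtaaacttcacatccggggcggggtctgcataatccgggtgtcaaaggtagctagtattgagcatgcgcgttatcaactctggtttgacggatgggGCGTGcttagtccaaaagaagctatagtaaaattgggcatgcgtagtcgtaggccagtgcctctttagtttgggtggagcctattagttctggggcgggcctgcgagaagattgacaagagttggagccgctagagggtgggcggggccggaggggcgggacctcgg

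Array medians lay between 6.40 and 6.61 on the log2 scale, and the correlation between arrays over all probe sets lay between 0.9732 and 0.9915. Replicate 2 without doxycycline at 24 h stood apart: its upper quartile was 8.19 and its SD 2.355, where the other arrays had 8.38 to 8.57 and 2.433 to 2.517. For some of the results that rest on it, the result without it is also given. Sox7, the induced gene, lay between 10.57 and 10.96 on the arrays with doxycycline and between 6.82 and 7.17 on those without. Itga2b, which encodes CD41, lay between 9.27 and 10.89 over the 8 arrays. Cd34 RNA lay between 9.18 and 10.78 although the cells were sorted as CD34-. No background level is known for these arrays. In bulk RNA, fewer cells of a type and less RNA per cell cannot be told apart. Below, values are log2 levels with replicate 1 before replicate 2, and differences are in log2 units ± standard error. A gene passed at a limma adjusted p under 0.05 over all 16348 probe sets. Unless an alternative fit is named, passing refers to the fit that did not pair samples by replicate number.

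The main pattern was one of culture time. Over both arms, with 4 arrays at 24 h against 4 at 12 h, 20 of the 31 genes rose and 0 fell, where 0.508% of all probe sets rose, 0.116% fell and 0.624% passed in either direction. These 20 were 19.6% of the 102 probe sets that passed. The genes were chosen with earlier results of these data known, so their excess over all probe sets only describes these data. The median difference of the 31 genes was 1.26, against -0.01 over all probe sets. In 24 of the 31 every 24 h array was above every 12 h array, a pattern seen in 2.73% of probe sets, and only Hif1a showed the opposite, a pattern seen in 2.53%. Averaged over the 31 probe sets, the level was 9.94 and 9.78 at 24 h with doxycycline, 9.65 and 9.43 at 24 h in untreated cells, 8.60 and 8.46 at 12 h with doxycycline, and 8.45 and 8.54 at 12 h in untreated cells. In the fit with a replicate block, 25 of the genes and 353 probe sets passed; the 5 added genes were Bnip3l, Hk1, Hk2, Vegfa and Kdm3a. Leaving out 1 array gave 11 genes without replicate 1 with doxycycline at 24 h and 14 without its replicate 2, and 16 and 21 without replicate 1 and 2 lacking it at 24 h. It gave 16 and 17 without replicate 1 and 2 with doxycycline at 12 h, and 15 and 18 without replicate 1 and 2 lacking it at 12 h.

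**Figure D1:**
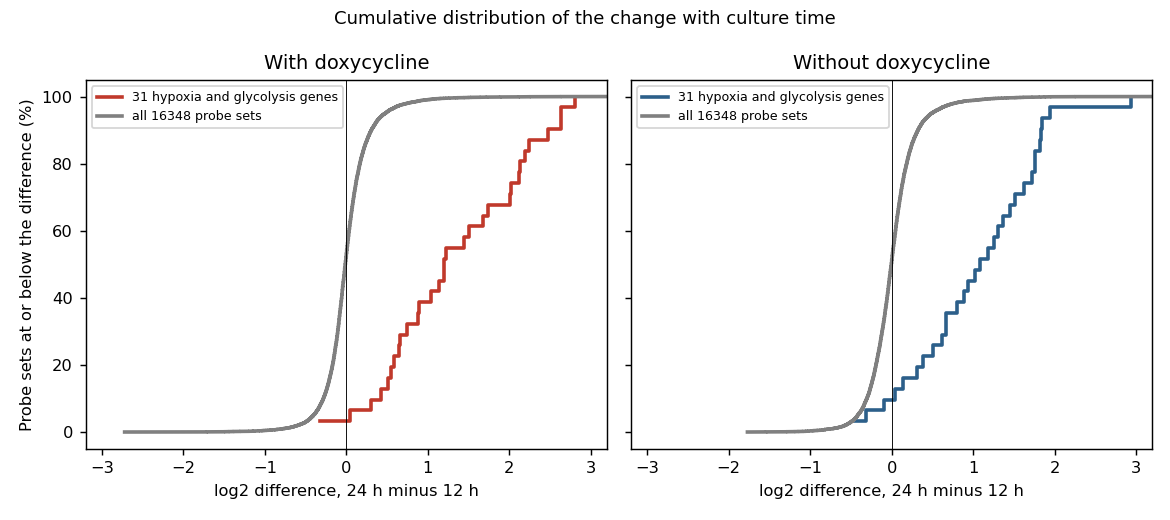
Cumulative share of probe sets (%) against the log2 difference of 24 h minus 12 h, with doxycycline (left) and without it (right), for the 31 hypoxia and glycolysis genes (coloured) and all 16348 probe sets (grey). The coloured curves lie to the right, with medians of 1.20 with doxycycline and 1.08 without it, against -0.01 for all probe sets in both. A few grey values lie beyond the axis. The 31 genes were chosen with earlier results of these data known.

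Each arm was then compared on its own arrays, with the spread estimated from all 8. With doxycycline 11 of the 31 genes rose between the times and 0 fell (of all probe sets 0.184% passed, 0.159% rising and 0.0245% falling). Without it 7 rose and 0 fell (0.147% passed, 0.141% rising and 0.00612% falling). Of these, 6 genes rose in both arms: Bnip3, Egln1, Egln3, Ero1a, Ddit4 and Vldlr, which is 6 of 11 and 6 of 7. Aldoc, Pfkl, Pfkp, Slc16a3 and Bhlhe40 passed with doxycycline alone and Ndrg1 without it alone. When the array that stood apart was left out, Bnip3, Pfkl, Pfkp, Slc16a3 and Bhlhe40 no longer passed with doxycycline. That array is not part of the comparison with doxycycline, so their differences there could not change, and only the estimate of the spread did. In the fit with a replicate block 20 genes rose with doxycycline and 15 without it, and Aldoc, Pfkl, Pfkp and Slc16a3 were then among both. Of all 16348 probe sets, 123 passed in that fit with doxycycline and 130 without it, instead of 30 and 24. When the spread came from the 4 arrays of an arm alone, 0 of the 31 genes passed in either arm in limma (29 with doxycycline and 25 without it at an unadjusted p under 0.05). No gene's time effect was shown to differ between the arms, since the interaction had 0 of 16348 probe sets past the threshold (505 probe sets and 7 of the 31 genes had an unadjusted p under 0.05 in limma, and the smallest adjusted p was 0.919). Groups did not overlap in 28 genes that were higher and 1 that was lower at 24 h with doxycycline (18.7% and 20.5% of all probe sets), and in 26 higher and 2 lower without it (14.6% and 14.3%).

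With 2 arrays per group the number of calls depended on single arrays. Over the fits that left out 1 array, the Bnip3 difference lay between 2.29 and 2.96 with doxycycline and between 2.71 and 3.15 without. Some genes moved more for their size: Ankrd37 lay between 1.34 and 2.67 with doxycycline, and P4ha2 between 1.28 and 2.16 without. Leaving out an array of the other arm cannot change these differences. With doxycycline the count of 11 became 0 without replicate 1 with it at 24 h or replicate 2 with it at 12 h, and 4 without replicate 2 with it at 24 h. It became 6 without either array lacking it at 24 h. Without doxycycline the count of 7 became 0 when any of 5 arrays was left out, namely both with doxycycline at 24 h, replicate 1 lacking it at 24 h and both lacking it at 12 h. It was 4 without the array that stood apart, and Egln1, Egln3 and Vldlr were still among them. In that fit, the differences without doxycycline were 2.07 for Egln1, 1.54 for Egln3 and 1.84 for Vldlr (adjusted p = 0.0422 for each). Bnip3 then had 3.12, Ndrg1 1.92, Ero1a 1.12 and Ddit4 1.73, with adjusted p of 0.0561, 0.0801, 0.0531 and 0.0531.

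**Figure D2:**
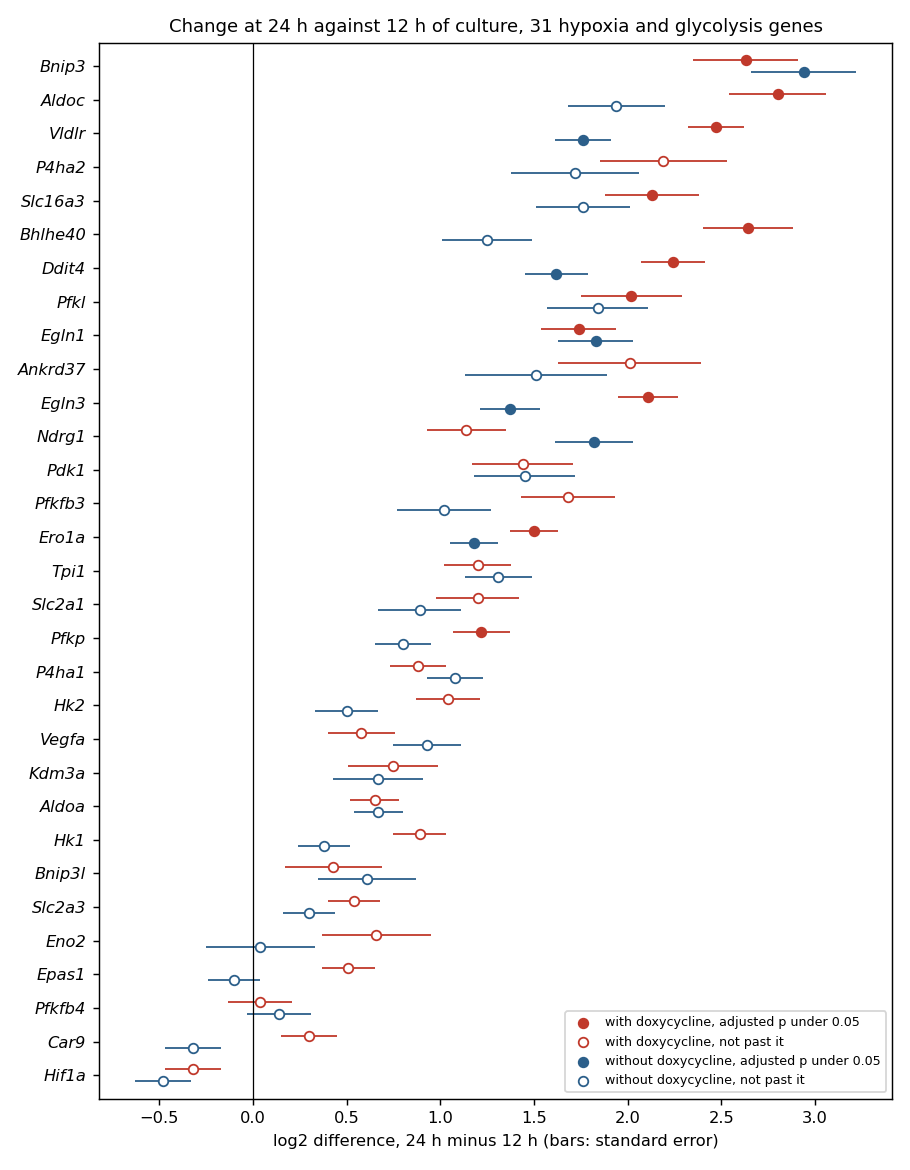
Log2 difference of 24 h minus 12 h for each of the 31 genes with doxycycline (red) and without it (blue), with standard errors from limma, ordered by the difference over both arms. Filled points passed at an adjusted p under 0.05; 30 genes lay above 0 with doxycycline and 28 without it, and Bnip3 had the highest difference without doxycycline (2.94).

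The prolyl hydroxylase genes Egln1 and Egln3 rose with time, and neither Hif1a nor Epas1 passed the test. Egln2, the third gene of that family, had -0.10 over both arms (adjusted p = 0.709), and the asparaginyl hydroxylase gene Hif1an had -0.06 (adjusted p = 0.873). Egln1 encodes the main prolyl hydroxylase that acts on HIF alpha in normal oxygen. It read 10.00 and 9.89 at 24 h with doxycycline, 9.92 and 9.44 at 24 h without, 8.18 and 8.23 at 12 h with and 7.69 and 8.01 at 12 h without. No 24 h array reached down to a 12 h array, and the rise was 1.74 ± 0.20 with doxycycline (3.34-fold, adjusted p = 0.0259) and 1.83 ± 0.20 without (3.56-fold, adjusted p = 0.0244). Egln3, a related hydroxylase that hypoxia is known to induce strongly, read 10.59 and 10.38 at 24 h with doxycycline and 10.34 and 10.00 without, against 8.37 and 8.37 at 12 h with it and 8.78 and 8.82 without. It rose by 2.11 ± 0.16 with doxycycline (4.33-fold, adjusted p = 0.00736) and by 1.37 ± 0.16 without (2.58-fold, adjusted p = 0.0298).

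Hif1a was the gene of the list with levels below those of 12 h on every 24 h array, though it did not pass. Its values were 9.82 and 9.99 at 24 h with doxycycline, 9.87 and 9.61 at 24 h without, 10.20 and 10.25 at 12 h with and 10.21 and 10.23 at 12 h without (difference over both arms -0.40 ± 0.10, adjusted p = 0.145). Epas1, the other alpha subunit, known for its role in endothelium, read 8.41 and 8.32 at 24 h with doxycycline and 7.65 and 7.50 without, against 7.90 and 7.81 at 12 h with it and 7.60 and 7.74 without. Its 24 h and 12 h arrays overlapped without doxycycline, and the time difference over both arms was 0.21 (adjusted p = 0.628). Of 15 other measured HIF regulators, which include the partner subunit Arnt and the ubiquitin ligase subunit Vhl, 0 passed with time over both arms in limma (2 at an unadjusted p under 0.05, median 0.01), and Hif3a rose in the fit with a replicate block. The smallest p-values of this list for doxycycline at 24 h or time without it belonged to Cited2, Nfil3 and Hif3a (adjusted p from 0.555 to 0.753).

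Bnip3, Ddit4, Vldlr, Ero1a and Ndrg1 rose, and Bnip3 had the largest difference of the 31 genes over both arms. Bnip3 encodes a receptor on the outer mitochondrial membrane that marks mitochondria for autophagy. Its values were 10.77 and 10.34 at 24 h with doxycycline, 10.39 and 10.02 at 24 h without, 8.26 and 7.59 at 12 h with and 7.49 and 7.05 at 12 h without. Every 24 h array was well above every 12 h array, with a rise of 2.63 ± 0.28 with doxycycline (6.19-fold, adjusted p = 0.023) and 2.94 ± 0.28 without (7.65-fold, adjusted p = 0.0223). Over both arms it rose by 2.78 ± 0.19 (6.88-fold, adjusted p = 0.00146), the fourth highest difference of all 16348 probe sets. Its relative Bnip3l, a receptor that clears mitochondria from maturing red cells, lay between 7.59 and 8.23 at 24 h and between 7.04 and 7.72 at 12 h, and the groups overlapped (0.52, adjusted p = 0.285, and 0.031 with the replicate block).

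Ddit4 encodes REDD1, an inhibitor of the mTOR growth pathway. It read 10.35 and 10.03 at 24 h with doxycycline and 9.59 and 9.36 without, against 8.08 and 7.82 at 12 h with it and 7.85 and 7.86 without. It rose by 2.24 ± 0.17 with doxycycline (4.72-fold, adjusted p = 0.00736) and by 1.62 ± 0.17 without (3.07-fold, adjusted p = 0.0244). The groups of the 2 times were far apart in both arms. Vldlr, the receptor for very low density lipoprotein, read 7.56 and 7.34 at 24 h with doxycycline and 6.84 and 6.67 without, while the 12 h arrays had 4.97 and 4.99 with it and 4.90 and 5.09 without. Its rise was 2.47 ± 0.15 with doxycycline (5.54-fold, adjusted p = 0.00482) and 1.76 ± 0.15 without (3.39-fold, adjusted p = 0.0223). The 12 h arrays with and without the drug overlapped for this gene.

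Ero1a, an endoplasmic reticulum oxidase needed for disulfide bonds in secreted proteins, differed little between replicates. Its levels were 11.65 and 11.66 at 24 h with doxycycline, 11.02 and 11.15 at 24 h without, 10.15 and 10.15 at 12 h with and 9.85 and 9.96 at 12 h without. The rise was 1.50 ± 0.13 with doxycycline (adjusted p = 0.0116) and 1.18 ± 0.13 without (adjusted p = 0.0263), and the 4 groups did not overlap. Ndrg1, a stress-responsive gene named for its repression by N-Myc, read 10.31 and 9.87 at 24 h with doxycycline and 9.33 and 9.14 without, against 8.79 and 9.12 at 12 h with it and 7.26 and 7.57 without. It rose without doxycycline by 1.82 ± 0.21 (3.53-fold, adjusted p = 0.0295), and its difference with doxycycline was 1.14 ± 0.21 (adjusted p = 0.15). The 12 h arrays with doxycycline lay just below the 24 h arrays without it.

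**Figure D3:**
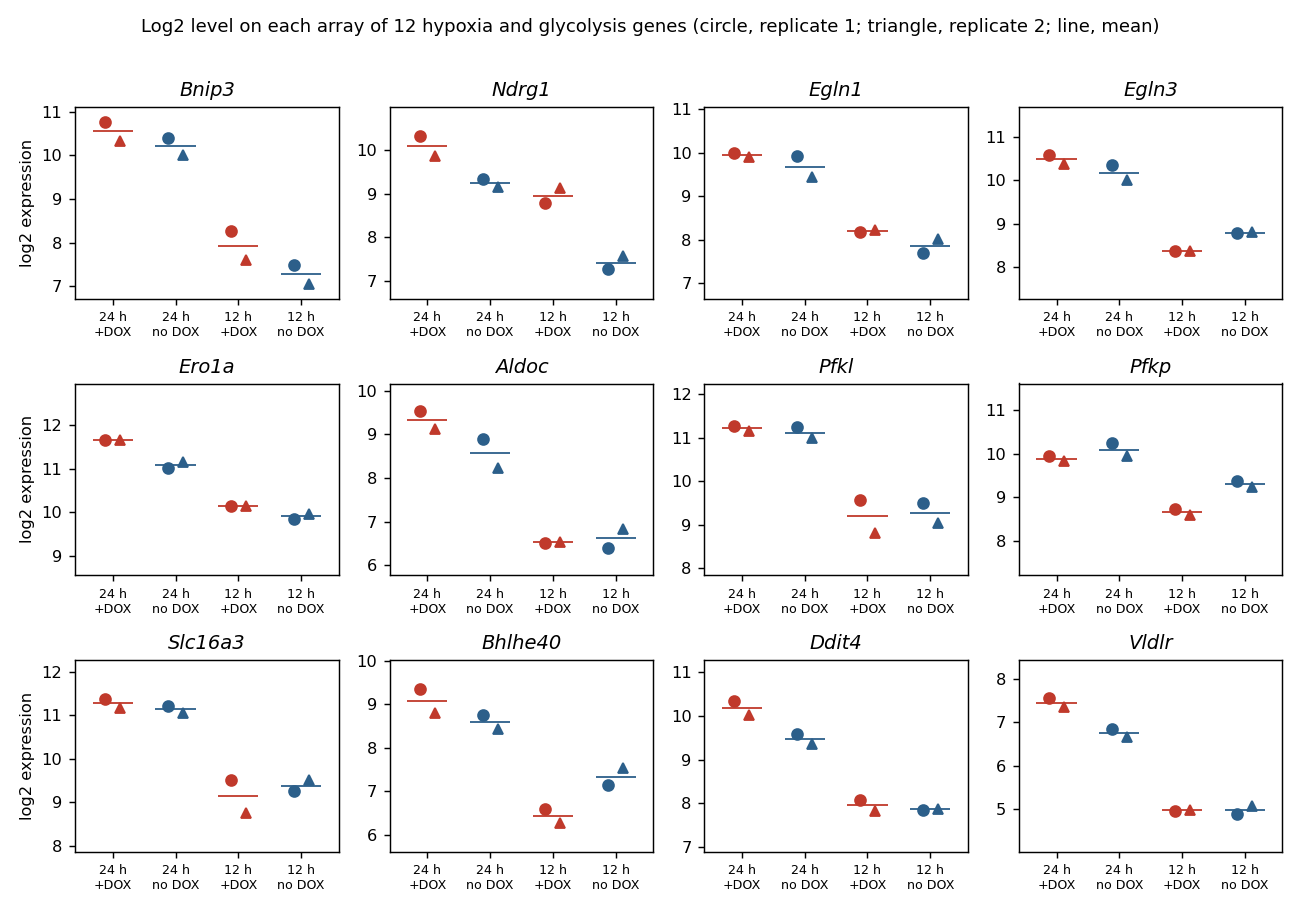
Log2 level (vertical axis, each panel spanning the same number of log2 units) on the 8 arrays of the 12 genes that rose with time in at least 1 arm, with doxycycline in red and without it in blue; circles are replicate 1, triangles replicate 2 and lines group means. Bnip3 lay between 10.02 and 10.77 on the 24 h arrays and between 7.05 and 8.26 on the 12 h arrays.

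Bhlhe40 encodes a transcriptional repressor of the clock and hypoxia pathways. It read 9.35 and 8.80 at 24 h with doxycycline, 8.76 and 8.42 at 24 h without, 6.59 and 6.28 at 12 h with and 7.14 and 7.53 at 12 h without. It rose with doxycycline by 2.64 ± 0.24 (6.23-fold, adjusted p = 0.0167), and its difference without was 1.25 ± 0.24 (adjusted p = 0.154). The drug-treated arrays were thus the lowest at 12 h and the highest at 24 h. Ankrd37, a small ankyrin-repeat gene known as a HIF target, read 8.16 and 7.91 at 24 h with doxycycline and 7.90 and 7.64 without, against 6.69 and 5.37 at 12 h with it and 6.26 and 6.26 without. It rose over both arms by 1.76 ± 0.26 (adjusted p = 0.0279), and its 12 h replicates with doxycycline were the most unequal of its 4 pairs. Without the array that stood apart its difference was 1.86 but did not pass.

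Among the transporters, the lactate exporter gene Slc16a3 and the glucose carrier gene Slc2a1 rose. The glucose carrier genes Slc2a3, Slc2a4, Slc2a6 and Slc2a8 did not pass. Slc16a3 encodes the lactate exporter MCT4. Its values were 11.37 and 11.17 at 24 h with doxycycline, 11.22 and 11.05 at 24 h without, 9.51 and 8.76 at 12 h with and 9.25 and 9.50 at 12 h without. The rise was 2.13 ± 0.25 with doxycycline (adjusted p = 0.0295), and the difference without it was 1.76 ± 0.25 (adjusted p = 0.0652). Slc2a1, the glucose transporter GLUT1, read 12.72 and 12.91 at 24 h with doxycycline and 12.80 and 12.98 without, against 11.36 and 11.87 at 12 h with it and 11.78 and 12.23 without. Over both arms it rose by 1.04 ± 0.16 (adjusted p = 0.0289), with no overlap between the times. Without the array that stood apart the difference was again 1.04 but did not pass. Slc2a3, the glucose transporter GLUT3, lay between 13.01 and 13.35 at 24 h and between 12.75 and 12.86 at 12 h (0.43, adjusted p = 0.125).

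Among glycolytic enzymes, Pfkl, Pfkp, Aldoa, Aldoc and Tpi1 rose over both arms. Phosphofructokinase commits sugar to glycolysis, and Pfkl and Pfkp encode its liver and platelet forms. Pfkm, the muscle form, had 0.56 over both arms with overlapping groups and did not pass (adjusted p = 0.238). Pfkl read 11.26 and 11.16 at 24 h with doxycycline, 11.25 and 10.98 at 24 h without, 9.56 and 8.82 at 12 h with and 9.49 and 9.05 at 12 h without. It rose by 2.02 ± 0.27 with doxycycline (adjusted p = 0.0493), and its difference without was 1.84 ± 0.27 (adjusted p = 0.0652). Drug-treated and untreated arrays overlapped at each time. Pfkp read 9.95 and 9.83 at 24 h with doxycycline and 10.24 and 9.96 without, against 8.74 and 8.59 at 12 h with it and 9.37 and 9.23 without. It rose by 1.22 ± 0.15 with doxycycline (adjusted p = 0.0426), and its difference without was 0.80 ± 0.15 (adjusted p = 0.153).

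Aldoc encodes the brain-type aldolase, which splits the sugar bisphosphate. It read 9.54 and 9.12 at 24 h with doxycycline, 8.90 and 8.23 at 24 h without, 6.52 and 6.53 at 12 h with and 6.40 and 6.84 at 12 h without. The rise with doxycycline was 2.80 ± 0.26 (6.99-fold, adjusted p = 0.0169), the difference without was 1.94 ± 0.26 (adjusted p = 0.0604), and the times did not overlap. Aldoa, the muscle-type aldolase of most cells, read 13.64 and 13.61 at 24 h with doxycycline and 13.62 and 13.52 without, against 12.99 and 12.96 at 12 h with it and 12.89 and 12.92 without. The rise over both arms was 0.66 ± 0.08 (adjusted p = 0.0116), and its replicates were close together. Tpi1, which interconverts the products of aldolase, read 13.33 and 13.23 at 24 h with doxycycline and 13.32 and 13.25 without, against 12.31 and 11.85 at 12 h with it and 12.05 and 11.90 without. Its rise over both arms was 1.26 ± 0.12 (adjusted p = 0.00432), with drug-treated and untreated arrays intermingled.

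Hexokinases trap glucose in the cell, and neither Hk1 nor Hk2 passed with time over both arms, though both did under several alternatives, among them the replicate block, repeated quantile normalization, array weights and leaving out the array that stood apart. Hk1 read 9.43 and 9.34 at 24 h with doxycycline, 9.82 and 9.60 at 24 h without, 8.51 and 8.48 at 12 h with and 9.40 and 9.25 at 12 h without. Within each arm the times did not overlap, but 24 h arrays with the drug overlapped 12 h arrays without it. The difference over both arms was 0.64 ± 0.13 (adjusted p = 0.0785, and 0.0439 with the replicate block). Hk2, the hypoxia-inducible form, lay between 9.47 and 10.12 at 24 h and between 8.84 and 9.15 at 12 h (0.78, adjusted p = 0.0699, and 0.034 with the block). Eno2, the neuronal enolase, lay between 5.73 and 6.08 at 24 h and between 5.16 and 6.24 at 12 h (0.35, adjusted p = 0.617).

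Among the genes that steer flux through glycolysis, Pdk1 and Pfkfb3 rose over both arms. Pfkfb4 did not pass, nor did Pdk2, Pdk3, Pdk4, Pfkfb2 and Tigar, which had differences of 0.67, 0.47, 0.25, -0.24 and -0.18. Pdk1 encodes a kinase that keeps pyruvate out of the citric acid cycle by inhibiting pyruvate dehydrogenase. It read 9.87 and 9.71 at 24 h with doxycycline, 9.55 and 9.16 at 24 h without, 8.68 and 8.02 at 12 h with and 8.17 and 7.64 at 12 h without, and it rose over both arms by 1.45 ± 0.18 (adjusted p = 0.0123). Pfkfb3 and Pfkfb4 encode bifunctional enzymes that make and remove the main activator of phosphofructokinase. Pfkfb3 read 10.19 and 9.75 at 24 h with doxycycline and 9.20 and 8.71 without, against 8.35 and 8.24 at 12 h with it and 7.69 and 8.18 without. It rose over both arms by 1.35 ± 0.20 (adjusted p = 0.0262). Pfkfb4 had nearly the same level at both times within each arm: 8.49 and 8.54 at 24 h with doxycycline and 9.71 and 9.37 without, against 8.56 and 8.38 at 12 h with it and 9.53 and 9.27 without. Its time difference over both arms was 0.09 (adjusted p = 0.843).

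Collagen prolyl hydroxylases, which need oxygen to stabilise the collagen helix, rose as well. P4ha1 read 10.70 and 10.60 at 24 h with doxycycline, 10.27 and 9.99 at 24 h without, 9.75 and 9.78 at 12 h with and 9.02 and 9.07 at 12 h without. Over both arms it rose by 0.99 ± 0.10 (adjusted p = 0.00563). P4ha2 read 8.89 and 9.08 at 24 h with doxycycline and 7.43 and 7.95 without, against 6.48 and 7.11 at 12 h with it and 5.53 and 6.41 without. The rise over both arms was 1.95 ± 0.24 (adjusted p = 0.0116), and within each time the drug-treated arrays were the higher ones.

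The remaining targets did not pass with time over both arms. Vegfa, the endothelial growth factor, lay between 9.01 and 9.27 at 24 h and between 7.95 and 8.83 at 12 h (0.76 ± 0.13, adjusted p = 0.0582, and 0.0323 with the replicate block). The histone demethylase gene Kdm3a lay between 9.82 and 10.48 at 24 h and between 9.34 and 9.61 at 12 h (0.71, adjusted p = 0.11, and 0.0195 with the block). Car9, the membrane carbonic anhydrase widely used as a marker of hypoxic tumours, read 4.56 and 4.46 at 24 h with doxycycline, 4.11 and 3.94 at 24 h without, 4.19 and 4.23 at 12 h with and 4.49 and 4.20 at 12 h without. Its difference with time was -0.01 over both arms.

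Lists of related genes were counted in the same fit. They too were chosen with earlier results of these data known. Of 34 other measured hypoxia-induced genes, 8 rose and 0 fell with time over both arms (median 0.44, and 14 rose with the replicate block): Ak4, Cox4i2, Fam162a, Gbe1, Gys1, Hmox1, Rora and Tmem45a. Of all 16348 probe sets 0.508% rose and 0.116% fell, and 353 passed with the block. Fam162a, a mitochondrial protein gene, rose by 1.52 ± 0.15 without doxycycline (adjusted p = 0.0223), and Tmem45a had 1.18 ± 0.15 there (adjusted p = 0.0514). Hmox1, which encodes heme oxygenase and is also induced by heme and oxidants, rose by 1.89 ± 0.20 with doxycycline and 1.90 ± 0.20 without (adjusted p = 0.0211 and 0.0224). Of 26 other measured genes of glycolysis and pyruvate use 0 passed in limma (8 at an unadjusted p under 0.05, median 0.10), and 4 rose with the replicate block (Bsg, Pdk2, Pdk3 and Pfkm). Of 28 measured genes of the citric acid cycle and respiratory chain 0 passed in limma with or without the block (2 at an unadjusted p under 0.05, median 0.08). In the respiratory list, the smallest p-values for doxycycline at 24 h or time without it belonged to Uqcrfs1, Sdhd and Ndufv1 (adjusted p from 0.465 to 0.686).

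**Figure D4:**
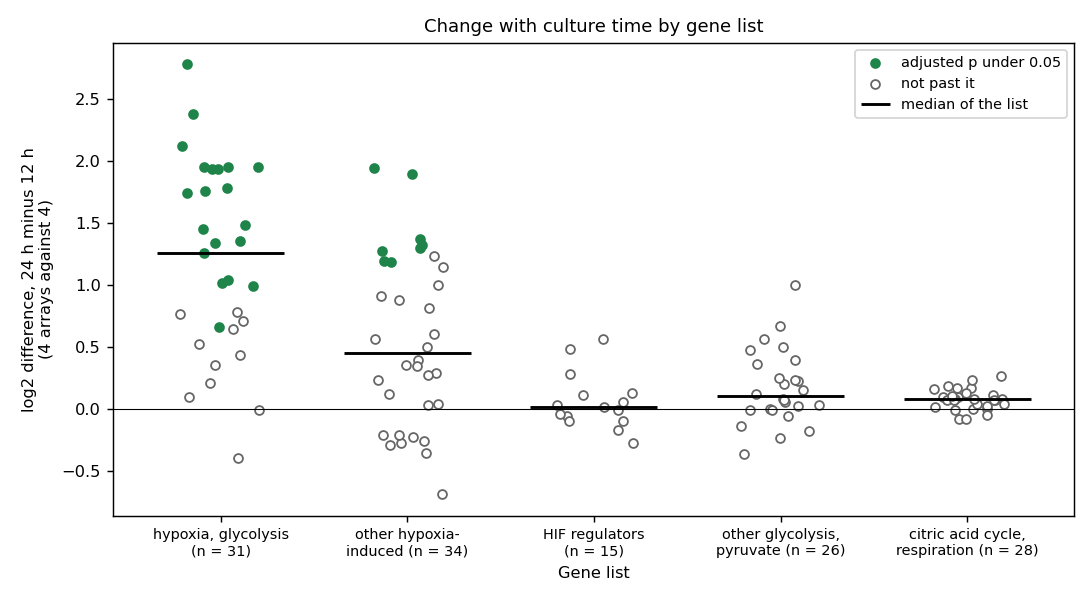
Log2 difference of 24 h minus 12 h over both arms (4 arrays against 4) for each gene of 5 lists, with passing genes filled and each list's median as a line. The medians are 1.26, 0.44, 0.01, 0.10 and 0.08 from left to right. The lists were chosen with earlier results of these data known.

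Markers of other cell types were set beside the change with time. Over both arms 0.508% of all probe sets rose and 0.116% fell, and 353 passed with the replicate block. Of the 11 markers of the sorted CD41+ precursors 0 passed with time in limma (5 at an unadjusted p under 0.05, median 0.06), and with the replicate block Ptprc rose and Gata2 fell. The mean of 7 erythroid markers was 10.84 and 10.69 at 24 h with doxycycline, 11.78 and 11.49 at 24 h without, 10.45 and 10.20 at 12 h with and 11.29 and 10.97 at 12 h without. Ermap and Slc4a1 of that list rose over both arms (median of the list 0.28). The mean of 7 myeloid markers was 5.63 and 5.50 at 24 h with doxycycline and 6.59 and 5.85 without, against 5.22 and 5.02 at 12 h with it and 5.24 and 5.12 without. Csf1r of that list rose over both arms (median 0.69, and Mpo too with the replicate block). Without doxycycline Cd14 of that list rose with time (list median 0.79), where 0.141% of all probe sets rose. Of the 6 megakaryocyte, 10 endothelial and 13 smooth muscle and mesenchyme markers 0 passed with time in limma (2, 2 and 1 at an unadjusted p under 0.05), with medians of 0.79, -0.24 and 0.12, and with the replicate block Vwf and Postn rose and Ramp2 and Tagln fell. The megakaryocyte mean was 8.17 and 7.12 at 24 h with doxycycline, 9.06 and 7.25 at 24 h without, 7.22 and 6.52 at 12 h with and 7.72 and 6.85 at 12 h without. The smooth muscle and mesenchyme mean was 6.09 and 7.19 at 24 h with doxycycline and 6.32 and 7.28 without. At 12 h it was 6.11 and 7.08 with it and 6.21 and 7.20 without. In every group the first mean was higher and the second lower in replicate 1, and the reason was not tested. The part of these cells in the change with time was not tested.

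Fewer of these genes passed with doxycycline than with time. At 24 h Epas1 was higher and Pfkfb4 lower with the drug, where 0.887% of all probe sets were higher, 0.551% lower and 1.44% passed in all. At 12 h Ndrg1 was the 1 gene that passed, higher with the drug (0.593% of probe sets were higher, 0.33% lower and 0.924% passed in all). In the fit with a replicate block 6 genes passed at 24 h, with Ero1a, P4ha2, Ddit4 and Vldlr added as higher, and 5 at 12 h, with P4ha1 added as higher and Pfkfb4, Pfkp and Hk1 as lower. Of all 16348 probe sets, 677 passed in that fit at 24 h and 467 at 12 h, instead of 235 and 151. When only the 4 arrays of a time were fitted, 0 passed at 24 h or at 12 h in limma (11 and 7 at an unadjusted p under 0.05). Over both times 3 genes were higher, Ndrg1, P4ha1 and P4ha2 (2.61% of probe sets), and 2 were lower, Pfkfb4 and Hk1 (1.81%). In all 4.42% of probe sets passed over both times, and 1 of the 31 genes was higher (Epas1) and 1 lower (Pfkfb4) on every drug-treated array, where 5.43% and 3.58% of all probe sets were. The median difference was 0.27 at 24 h and 0.00 at 12 h, against -0.01 over all probe sets at each time. At 24 h 26 of the 31 differences were above 0 and 5 below, and at 12 h 16 and 15. At 24 h, 17 genes had both drug-treated arrays above both untreated ones and 3 had both below (15.2% and 16.2% of all probe sets); at 12 h these were 10 and 5 (21.7% and 22.3%). The comparison at 24 h shares its arrays with the time effects, so the values are given side by side only.

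Epas1 was 0.79 ± 0.14 higher with doxycycline at 24 h (1.73-fold, adjusted p = 0.0431), and its difference at 12 h was 0.18 ± 0.14 (adjusted p = 0.876). All 4 drug-treated arrays were above all 4 untreated ones. Without replicate 2 lacking the drug at 24 h the 24 h difference was 0.71 (adjusted p = 0.0831). Pfkfb4 was lower at 24 h, with a difference of -1.03 ± 0.17 (2.03-fold, adjusted p = 0.039), and the difference at 12 h was -0.93 ± 0.17 (adjusted p = 0.0662). Over both times it fell by 0.98 ± 0.11 (adjusted p = 0.00289), again with no overlap. Without the array that stood apart its 24 h difference was -1.20 (adjusted p = 0.0497). At 24 h the 2 calls became 0 without any 1 of the 4 arrays at 12 h or either array with doxycycline at 24 h, while Epas1 alone passed without replicate 1 lacking it at 24 h and Pfkfb4 alone without replicate 2.

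Ndrg1 was 1.54 ± 0.21 higher with doxycycline at 12 h (2.91-fold, adjusted p = 0.0277) and its difference at 24 h was 0.86 ± 0.21 (adjusted p = 0.123). Both drug-treated arrays were above both untreated ones at each time. The call at 12 h was lost when any 1 of the 4 arrays at 12 h was left out. P4ha1 was 0.62 ± 0.10 higher over both times (1.54-fold, adjusted p = 0.0119), and P4ha2 1.06 ± 0.24 higher (2.08-fold, adjusted p = 0.0464). Hk1 was lower over both times, with a difference of -0.58 ± 0.13 (1.49-fold, adjusted p = 0.0417), with -0.33 at 24 h and -0.83 at 12 h (adjusted p = 0.458 and 0.0524).

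In the fit with a replicate block, 8 of the genes and 1231 probe sets passed for doxycycline over both times. The 3 added genes were all higher with the drug: Bnip3 by 0.50 (adjusted p = 0.251 without the block and 0.0244 with it), Ero1a by 0.41 (0.0642 and 0.0453) and Pdk1 by 0.44 (0.286 and 0.0384). Of the 5 calls over both times, Ndrg1, P4ha1 and Pfkfb4 were still made whichever array was left out. Hk1 was lost without any 1 array other than replicate 2 lacking doxycycline at 24 h. P4ha2 was lost without replicate 1 lacking it at 12 h, replicate 2 with it at 12 h, either array lacking it at 24 h or either array with it at 24 h. Those fits left 3 to 5 of the 31 genes passing.

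**Figure D5:**
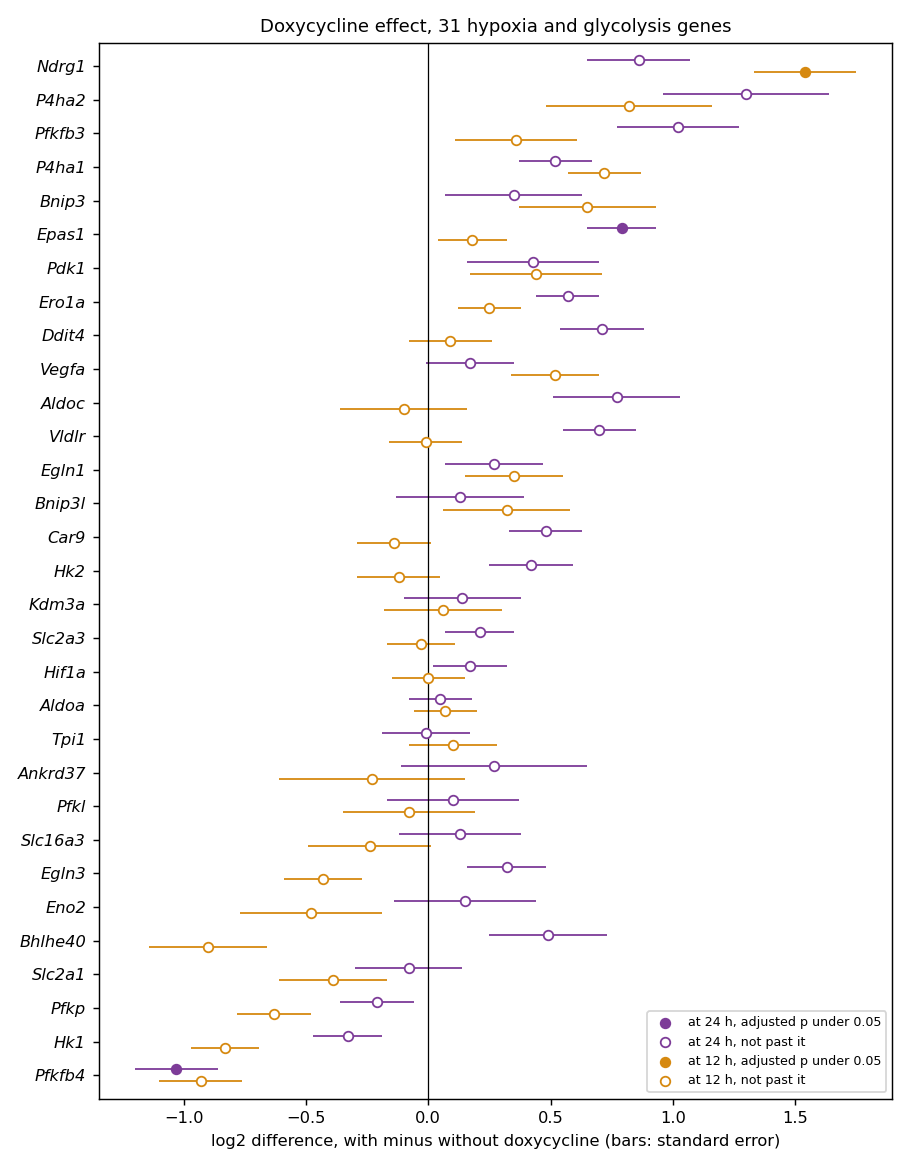
Log2 difference of doxycycline minus none for each of the 31 genes at 24 h (purple) and at 12 h (orange), with standard errors from limma, ordered by the difference over both times. Filled points passed at an adjusted p under 0.05: Epas1 (0.79) and Pfkfb4 (-1.03) at 24 h and Ndrg1 (1.54) at 12 h.

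Vldlr, Ddit4, Aldoc, Pfkfb3, P4ha2 and Pfkp did not pass at either time, except that with the replicate block Vldlr, Ddit4 and P4ha2 passed at 24 h and Pfkp at 12 h. Vldlr had 0.70 at 24 h and -0.01 at 12 h, Ddit4 0.71 and 0.09, Aldoc 0.77 and -0.10, and Pfkfb3 1.02 and 0.36 (adjusted p = 0.0857, 0.118, 0.293 and 0.12 at 24 h). P4ha2 had 1.30 and 0.82 (adjusted p = 0.146 at 24 h). Pfkp had -0.21 at 24 h and -0.63 at 12 h (adjusted p = 0.159 at 12 h). The interaction, with 0 probe sets past the threshold, did not show a difference between the times for any of them. Of the other hypoxia-induced genes, Dpysl2, Hmox1 and Plod2 were higher and Errfi1 lower with the drug over both times (2.61% and 1.81% of all probe sets). Pklr, which encodes the pyruvate kinase of liver and red cells, was lower at 24 h, with a difference of -1.90 (adjusted p = 0.0127), the 1 call among the other glycolysis and pyruvate genes at that time. Slc2a6, a glucose transporter family gene, had -0.68 (adjusted p = 0.0504), and Eno3, the muscle enolase, had -0.60 with time without the drug (adjusted p = 0.251).

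Cell type markers moved with the drug as well. Over both times 4 of the 7 erythroid markers fell (Epor, Ermap, Klf1 and Slc4a1) and 4 of the 10 endothelial markers rose (Cdh5, Esam, Kdr and Pecam1), with list medians of -0.99 and 1.19. Of all probe sets 1.81% fell and 2.61% rose over both times. With the replicate block 5 erythroid markers fell and 8 endothelial markers rose, where 1231 of all 16348 probe sets passed. Of 7 myeloid markers Csf1r fell over both times (median -0.34). At 24 h Cd14 and Csf1r were both lower with the drug (list median -0.68), where 0.551% of all probe sets were lower. Of the 11 precursor markers Tal1 fell and Kdr, which is also in the endothelial list, rose (median -0.35). The precursor mean was 9.06 and 8.90 at 24 h with doxycycline, 9.29 and 8.84 at 24 h without, 8.88 and 8.64 at 12 h with and 9.09 and 8.94 at 12 h without. The endothelial mean was 9.88 and 9.49 at 24 h with doxycycline, 8.88 and 7.63 at 24 h without, 9.85 and 9.42 at 12 h with and 9.13 and 8.27 at 12 h without. The erythroid means given above were lower with the drug on every array at the same time. The part of these markers in the drug effect on Epas1, Ndrg1, Pfkfb4, Hk1, P4ha1 and P4ha2 was not tested.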

How the data were processed

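The authors deposited a table of 16348 probe sets by 8 arrays in log2 units, made with RMA in Affymetrix Power Tools per the submitters' processing notes. In its usual form that method removes background, puts arrays on 1 distribution and condenses probes to probe sets. The 16348 deposited probe sets were not on exactly 1 distribution, with array medians of 6.40 to 6.61 and SDs of 2.355 to 2.517. The reason is not given in the sources used here. For tool versions, genome build and detection calls: not given in the sources used here. Groups and replicate numbers came from the sample titles, and 0 columns were unmapped. The platform annotation named the probe sets: it gave 1 symbol to 14785, several to 950 and none to 613; 14740 matched by Entrez identifier and 0 symbols changed.

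The model was fitted to every probe set in limma 3.58.1 (lmFit, eBayes; R 4.3.3), with a mean for each group (4 residual and 3.44 prior degrees of freedom). The comparisons over both arms or both times used additive terms for doxycycline and time (5 residual). Benjamini-Hochberg adjustment ran over all probe sets, with a threshold of 0.05, and no probe set was filtered out. The fit was also run on simulated data whose noise was independent between arrays. That setting lacks the pairing by replicate number described below, so it does not test the fit on paired samples. The number of arrays limits the precision, and arrays have no counterpart of sequencing depth.

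Deviations from the group means correlated between same-numbered samples at 0.298 to 0.428 over the 6 pairs of groups. Replicate numbers, which come from the titles, were therefore taken to pair the samples. The fit behind the main calls left this pairing out, so a gene said not to pass may pass with it. With the number as a block, 25 genes instead of 20 passed with time over both arms. For time it was 20 instead of 11 with doxycycline and 15 instead of 7 without it. For doxycycline over both times it was 8 instead of 5. The calls over all probe sets rose as well in each of these comparisons. The fit with the block counted as an alternative. Others were repeated quantile normalization, median centring, an intensity trend, a robust prior, array weights, leaving out the dimmest 33.3% of probe sets, a fit to the compared groups alone, and leaving out each array. The genes and lists were chosen with earlier results of these data known. Array values are printed for genes that passed in any comparison, for the 4 largest rises and falls of each pairwise comparison, and for Hif1a, Epas1, Egln1 and Egln3; of each other list, passing genes and the 3 smallest p-values over doxycycline at 24 h and time without it are named. Promoter windows came from RefSeq and were searched by exact match.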

Additional observations from a re-analysis of the deposited data

Results flagged for a closer look

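In 3 genes the groups did not overlap in either of 2 matching comparisons, and the order of the groups was opposite in them. The difference between the effects was tested in each as the interaction of doxycycline and time, and none passed in limma. For Egln3 the doxycycline difference was 0.32 at 24 h and -0.43 at 12 h, a difference of 0.75 ± 0.23 (adjusted p = 1). For Bhlhe40 it was 0.49 at 24 h and -0.90 at 12 h, a difference of 1.39 ± 0.35 (adjusted p = 1). For Car9 the time difference was 0.30 with doxycycline and -0.32 without it, a difference of 0.62 ± 0.22 (adjusted p = 1), on levels between 3.94 and 4.56. Over all probe sets, 15.2% had both drug-treated arrays above both untreated ones at 24 h and 22.3% had both below at 12 h. For time, 18.7% were higher at 24 h with doxycycline and 14.3% were lower at 24 h without it. The share of all probe sets with opposite orders in 2 matching comparisons was not counted. The 3 genes are therefore not shown to exceed that share.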

How the results depend on the processing

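Every called difference of the 25 genes given in full kept its direction under all alternatives: of their values, 2356 kept their side of the threshold, 191 lost a call, 110 gained one and 61 uncalled values changed sign. Much of this agreement in direction was fixed in advance. The trend, the robust prior, the dimmest left out, the block and the compared groups alone leave a gene's difference as it was. So does leaving out an array that a pairwise comparison does not use. Most of these genes were also picked for passing or for large differences. The counts moved more, and the causes were not tested except where fewer samples or fewer probe sets enter by construction. The number of probe sets past the threshold is given first and the number of the 31 genes after it where that moved by more than 1.5 times. For time over both arms (102 probe sets) repeated quantile normalization gave 224, the intensity trend 183, leaving out the dimmest probe sets 199, array weights 211 and the replicate block 353. For time with doxycycline (30 and 11) quantile normalization gave 49 with a median of 1.18, the trend 62 and 19, the dimmest left out 58, weights 88 and 18, the replicate block 123 and 20, and only the groups compared 0 and 0 (1607 and 29 at an unadjusted p under 0.05). For time without doxycycline (24 and 7) quantile normalization gave 61 and 11, the trend 44 and 13, the dimmest left out 51 and 12, weights 0 and 0 (675 and 22 unadjusted), the replicate block 130 and 15, and only the groups compared 1 and 0 (25 genes unadjusted). For doxycycline at 24 h (235 and 2) quantile normalization gave 415 and 4, the dimmest left out 367, weights 18 and 0 (10 genes unadjusted), the replicate block 677 and 6, and only the groups compared 126 and 0 (11 genes unadjusted). For doxycycline at 12 h (151 and 1) quantile normalization gave 241 and 5, centring 3 genes, the trend 4 genes, the dimmest left out 239 and 3, weights 495 and 5, the replicate block 467 and 5, and only the groups compared 0 and 0 (2116 and 7 unadjusted). For doxycycline over both times (723 and 5) the replicate block gave 1231 and 8, and the median of 0.15 became 0.11 with centring, 0.13 with the dimmest left out and 0.08 with weights; P4ha2 lost its call under quantile normalization, centring and weights. The interaction had 0 calls under each alternative.

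Leaving out 1 array in turn gave, as probe sets, genes and median difference, 45 to 146, 11 to 21 and 1.17 to 1.30 for time over both arms. With doxycycline the ranges were 0 to 29, 0 to 10 and 1.15 to 1.30, and without it 0 to 36, 0 to 9 and 0.98 to 1.22. Doxycycline gave 4 to 297, 0 to 1 and 0.15 to 0.48 at 24 h, 7 to 201, 0 to 4 and -0.03 to 0.19 at 12 h, and 377 to 730, 3 to 5 and 0.05 to 0.23 over both times. The interaction gave 0 to 0, 0 to 0 and 0.25 to 0.38. Each measured gene had 1 probe set, so an alternative probe set could not be tried.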
